A study of Danio rerio with 28 samples.

Results

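The visual opsin genes of zebrafish encode the proteins that catch light in the rods and cones of the retina. The members were chosen by name: rho, the opsin of rods, opn1lw1 and opn1lw2, the red-sensitive cone opsins, opn1mw1, opn1mw2, opn1mw3 and opn1mw4, the green-sensitive cone opsins, opn1sw2, the blue-sensitive cone opsin, and opn1sw1, the ultraviolet-sensitive cone opsin. Of these 9 genes, 6 were matched to 10 of the 43603 probes of the array, through the RefSeq accessions that the array gives for its probes. The genes opn1lw2 and opn1sw2 had 1 probe each and the 4 opn1mw genes had 2 each. No probe was matched to rho, opn1lw1 or opn1sw1, and these 3 genes were not analysed here.

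An opsin is a membrane receptor that holds a chromophore derived from vitamin A, and each cone type is defined by the opsin it makes. Light changes the shape of the chromophore, and the opsin then activates transducin, a G protein that starts the phototransduction cascade in the outer segment. Fish have several red and green opsin genes that arose by tandem duplication, and in zebrafish the copies of an array are used in different parts of the retina and at different ages.

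In GRCz12tu, the reference assembly used here, the 4 green opsin genes lie side by side on chromosome 6. They run from opn1mw1 (43739636 to 43741577) through opn1mw2 (43744092 to 43747218) and opn1mw3 (43749212 to 43751170) to opn1mw4 (43758261 to 43760310). The gaps between neighbours are 2514, 1993 and 7090 bases. On chromosome 11, opn1sw2 (27531874 to 27547813) and opn1lw2 (27553511 to 27555601) lie on either side of opn1lw1. The place of a probe within its transcript is not given in the sources used here, and whether the probes of a tandem copy also bind its neighbours was not tested.

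RNA came from pools of 30 whole embryos kept from about 3 hpf in 1 µM 17β-estradiol (E2), the main natural estrogen, or in the vehicle alone, and all groups were in 0.1% DMSO. Collection was at 24, 48, 72 and 104 hpf, called 1, 2, 3 and 4 dpf, so that the interval to the last stage was 32 h and the others 24 h. Each treatment had 3 pools at both of the early stages (1 and 2 dpf) and 4 at both of the late ones. With 1 single-colour Agilent array a pool this made 28 arrays in 8 groups. The methods give the wild-type strain DZ for the embryos pooled for RNA, and pools with the same replicate number were treated as pairs. Between stages such pairs join different pools, and whether they belong together was not tested. Values are log2 signals normalized between arrays by quantiles. An array on which the scanner software did not mark a probe as well above background is said to be at background there, and signals of different probes are not compared with each other.

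The share of spots well above background was between 58.1% and 96.1% per array, and 0 spots were saturated. The highest share belonged to E2 replicate 1 of 3 dpf and the lowest to E2 replicate 4 of 4 dpf, which also had the most outlier spots (529). On the first of these the lowest signal marked as well above background was 0.53, against 2.11 to 4.35 on the other 27 arrays, so that its background marks carry little weight. For the opsin genes, results of E2 embryos at 3 dpf are therefore also given without this array. The other lists were not refitted without it. Markers of the cell types that make opsins were present in these whole embryos. At 4 dpf all 10 cone and all 9 rod phototransduction genes measured were well above background on every DMSO array.

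Of the 6 measured opsin genes 5 rose during development in DMSO embryos, and most of the rise took place between 2 and 3 dpf. The red opsin gene opn1lw2, the blue opsin gene opn1sw2 and the green opsin genes opn1mw1 and opn1mw2 went from low signals at 2 dpf to strong ones at 3 dpf. The green opsin gene opn1mw3 rose to signals still at background on some arrays of 3 and 4 dpf, and opn1mw4 stayed at background. E2 moved none of the 6 genes at an adjusted p under 0.05 at any of the 4 stages.

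The red opsin gene opn1lw2 was at 0.68, 5.41 and 3.15 on the 3 DMSO arrays of 1 dpf, in the order of replicates 1, 2 and 3, with the last 2 well above background. At 2 dpf it was at 5.16, 5.96 and 4.78, at 3 dpf at 13.12, 13.74, 14.49 and 14.52, and at 4 dpf at 15.26, 15.42, 15.73 and 15.75. The arrays of 1 dpf were far apart and their highest lay within the range of 2 dpf, whereas the arrays of 2, 3 and 4 dpf did not overlap. From 1 to 2 dpf opn1lw2 rose by 2.22 on the log2 scale (SE 0.62, limma adjusted p 0.0112, higher in 3 of 3 pairs of the same replicate number). Without DMSO replicate 1 of 1 dpf, the only one at background, the rise was 1.21 (adjusted p 0.114), and without DMSO replicate 1 of 2 dpf it was 1.93 (adjusted p 0.0598). From 2 to 3 dpf it rose by 8.53 (SE 0.59, adjusted p 9.05e-09), which is 369.6-fold. The further difference of 1.57 from 3 to 4 dpf (SE 0.54, higher in 4 of 4 pairs) had an adjusted p of 0.0705. That p was 0.0136 without DMSO replicate 1 of 1 dpf, 0.00887 without DMSO replicate 2 of 1 dpf and 0.000971 with these stages fitted alone.

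The blue opsin gene opn1sw2 was the only member well above background on all 28 arrays. Its DMSO signals were 5.26, 5.46 and 4.95 at 1 dpf and 4.24, 3.91 and 3.01 at 2 dpf. The 3 arrays of 2 dpf all lay under those of 1 dpf. It fell by 1.50 from 1 to 2 dpf (SE 0.37, adjusted p 0.00455, lower in 3 of 3 pairs), and in E2 embryos it fell by 1.42 (SE 0.37, adjusted p 0.00697). With normexp, a background correction that raises low signals, the change in DMSO embryos was -0.42 (limma adjusted p 0.362). With an analysis of variance of these stages alone its adjusted p was 0.0578. The DMSO signals of opn1sw2 then stood at 11.32, 11.55, 12.10 and 12.16 at 3 dpf and at 14.16, 13.92, 13.74 and 13.81 at 4 dpf. The stages did not overlap. The rises were 8.02 from 2 to 3 dpf (SE 0.35, adjusted p 3.27e-11, 259.4-fold) and 2.13 from 3 to 4 dpf (SE 0.32, adjusted p 0.000165).

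The green opsin gene opn1mw1 was at 3.08, 5.26 and 2.69 on the DMSO arrays of 1 dpf and at 2.61, 2.04 and 2.67 at 2 dpf. Only replicate 2 of 1 dpf and replicate 3 of 2 dpf were well above background. The difference of -1.24 between these stages had an adjusted p of 0.144. Its signals were 12.40, 12.55, 13.53 and 13.64 at 3 dpf and 15.29, 15.14, 15.32 and 15.35 at 4 dpf. At both 3 and 4 dpf every array lay above every array of the stage before. The rise from 2 to 3 dpf was 10.48 (SE 0.56, adjusted p 3.54e-10). No fold is given for it, since the probe was at background on 2 of the 3 arrays of 2 dpf. A rise of 2.25 from 3 to 4 dpf followed (SE 0.51, adjusted p 0.00608). Its second probe was at background on all 3 DMSO arrays of 2 dpf and well above it on all of 3 dpf, which makes its rise at least 1647-fold.

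The main probe of the second green opsin gene, opn1mw2, was at background on all 12 arrays of 1 and 2 dpf, with signals between 0.78 and 2.27. The second probe was well above background on 2 of these 12, at 2.72 on DMSO replicate 2 and 2.92 on E2 replicate 1 of 2 dpf. On the DMSO arrays of 3 dpf the main probe was at 8.76, 8.97, 9.23 and 9.26 and on those of 4 dpf at 12.46, 12.16, 11.97 and 12.86, each well above background and with no overlap between stages. It rose by 7.04 from 2 to 3 dpf (SE 0.40, adjusted p 6.46e-10), which is at least 103.5-fold. Its rise of 3.31 from 3 to 4 dpf (SE 0.36, adjusted p 4.31e-06, 9.89-fold) was higher in 4 of 4 pairs. The second probe rose by 4.87 (SE 1.04, adjusted p 0.00266) and then by 3.18 (SE 0.94, adjusted p 0.0346).

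The third green opsin gene, opn1mw3, was at background on all arrays of 1 and 2 dpf, between 0.48 and 1.04. In DMSO embryos it reached 2.50, 3.08, 2.53 and 3.02 at 3 dpf, where 1 of 4 arrays was well above background, and 3.2, 3.07, 2.97 and 3.31 at 4 dpf, where 3 of 4 were. The arrays of 2 and 3 dpf did not overlap and those of 3 and 4 dpf did. The rise from 2 to 3 dpf was 2.19 (SE 0.32, adjusted p 6.57e-05), but the signals at 2 dpf set only a lower bound, and the fold was at least 1.35. Its second probe differed by 1.27 (SE 0.55, adjusted p 0.137). The difference from 3 to 4 dpf was 0.36 (SE 0.29, adjusted p 0.609).

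The last green opsin gene, opn1mw4, stayed between 0.65 and 2.27 on all 28 arrays by its main probe. The only array well above background was E2 replicate 1 of 3 dpf, at 0.88, the array whose background marks carry little weight. No fold change is given for it.

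**Figure D1:**
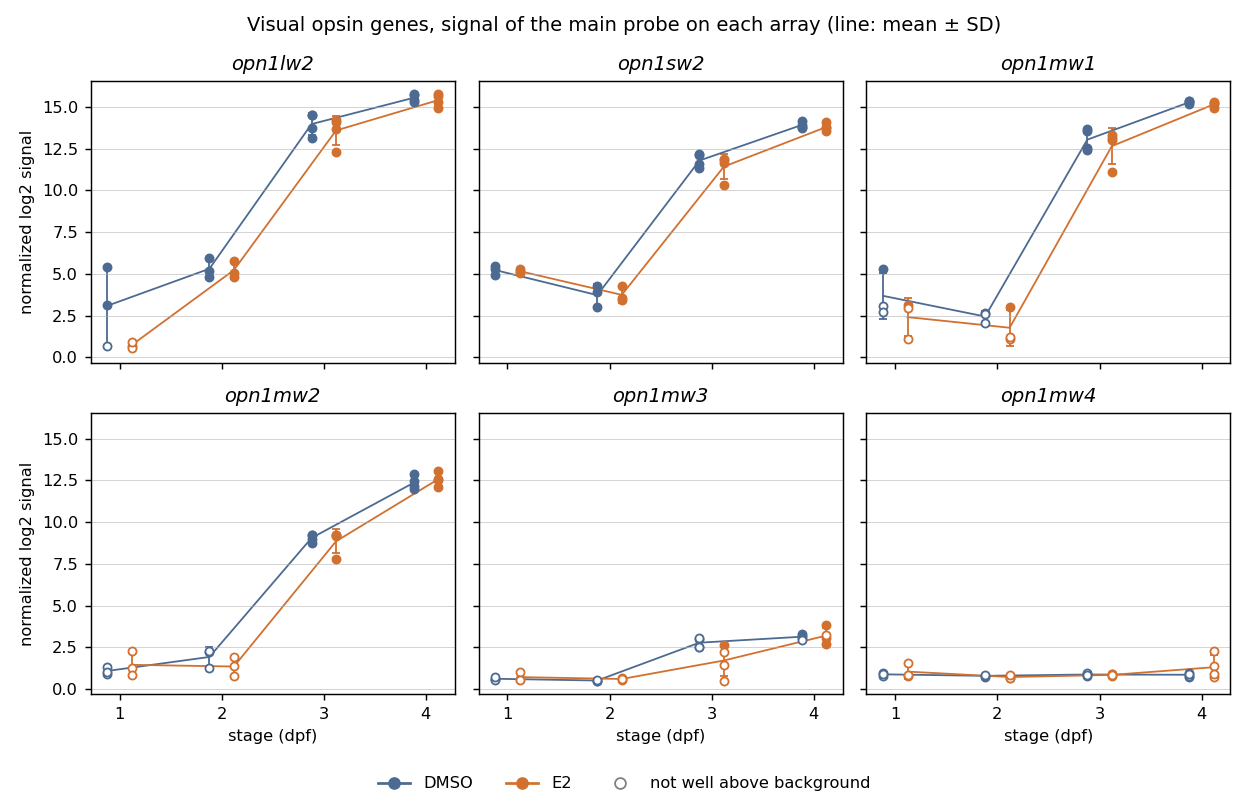
Normalized log2 signal of the main probe of each of the 6 visual opsin genes (vertical axis) on every array, by stage in dpf (horizontal axis), in DMSO (blue) and E2 embryos (orange). Lines join group means with bars of 1 SD, and open circles are arrays on which the probe was not well above background. The signals of opn1lw2, opn1sw2, opn1mw1 and opn1mw2 climb between 2 and 3 dpf in both treatments, and opn1mw4 stays low.

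By their main probes, the genes differed in the stage at which every array of both treatments was well above background. This was 1 dpf for opn1sw2, 2 dpf for opn1lw2 and 3 dpf for opn1mw1 and opn1mw2. It was reached at no stage by opn1mw3, with 3 of 4 arrays in each treatment at 4 dpf, and at no stage by opn1mw4. This order is one of detection by these probes, and in whole embryos more cells of a type and more RNA per cell cannot be told apart.

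Counted together, 2 of the 6 genes had an adjusted p under 0.05 from 1 to 2 dpf in DMSO embryos, opn1lw2 higher and opn1sw2 lower, where 25.1% of all probes did. From 2 to 3 dpf it was 5 of 6, all higher, where 16.3% of all probes were called and 8.97% were called higher. From 3 to 4 dpf it was 3 of 6, all higher, where 10.8% of all probes were called and 4.69% were called higher. The median change of the 6 genes from 2 to 3 dpf was 7.53, or 7.36 with genes at background throughout a stage set to their bound, and that of all probes was -0.01. With another background correction, normexp, which raises low signals, the rises from 2 to 3 dpf were smaller but all 5 remained called. They ran from 0.22 for opn1mw3 to 7.21 for opn1lw2, with 6.82 for opn1mw1 and 5.66 for opn1sw2.

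E2 embryos were read over the same steps. From 1 to 2 dpf opn1lw2 rose from 0.69, 0.57 and 0.93, all at background, to 5.06, 5.79 and 4.82, all well above it, without overlap. This rise was at least 3.79-fold (log2 change 4.49, SE 0.62, adjusted p 1.47e-05). Of the 6 genes, opn1lw2 and opn1sw2 were called in this step, beside 25.3% of all probes. From 2 to 3 dpf 5 of 6 rose (15.9% of all probes called, 7.94% higher), by 8.23 for opn1lw2, 7.64 for opn1sw2 and 10.77 for opn1mw1, which was at background on 2 of 3 arrays of 2 dpf. For opn1mw2, at background on all 3, the rise was at least 80.4-fold. The call of opn1mw3 (adjusted p 0.0314) has no size, since it was at background on all 3 arrays of 2 dpf and the bound was under 1. From 3 to 4 dpf the same 5 rose (13.1% of all probes called, 6.34% higher), by between 1.49 for opn1mw3 and 3.72 for opn1mw2. In DMSO embryos 3 of 6 were called in this step. There opn1mw3 differed by 0.36 (adjusted p 0.609) and opn1lw2 by 1.57 (adjusted p 0.0705). The opn1mw3 probe was well above background on only 1 of 4 E2 arrays of 3 dpf. Its step differed between the treatments by 1.13 and that of opn1lw2 by 0.24 (limma adjusted p 0.94 and 0.973). Without E2 replicate 1 of 3 dpf, 5 genes of E2 embryos rose from 2 to 3 dpf and 4 from 3 to 4 dpf. In the later step opn1lw2 then had a change of 1.62 and an adjusted p of 0.08.

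The genes whose signals followed the opsins most closely were sought among the main probes of 10009 named genes, by Pearson's r over the 28 arrays, as a description. All these series of points share the stages, and any gene that starts late and rises fast scores high. For opn1lw2 they were gnb3b, the cone transducin beta subunit (r 0.99), plac8.1 (0.98) and crybgx (0.98). For opn1mw1 they were prph2a, a peripherin of the outer segment rim (0.99), gnat2, the cone transducin alpha subunit (0.99), and slc25a3a, a mitochondrial phosphate carrier (0.98). For opn1mw2 they were slc25a3a, tm4sf21a and hspb15 (each 0.99). For opn1sw2 they were slc25a3a and prph2a (both 0.99) and gabra6a, a GABA receptor subunit (0.98). For opn1mw3, which was well above background on only 8 arrays, they were prph2b and rhol (both 0.96) and pik3cd (0.95). Among the opsins themselves r was between 0.88 and 0.99 for pairs without opn1mw4, and between 0.16 and 0.31 for pairs with it.

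The genes that work with cone opsins rose over the same interval. Of 10 cone phototransduction genes 9 rose from 2 to 3 dpf in DMSO embryos, where 8.97% of all probes were called higher. Their median change was 5.37 (5.06 with bounds), and 3 rose in each of the other 2 steps. Of all probes 25.1% were called from 1 to 2 dpf, and 4.69% were called higher from 3 to 4 dpf. The mean signal of gnat2 was 5.66, 6.09, 12.36 and 14.21 from 1 to 4 dpf, and that of gnb3b was 2.93, 4.19, 12.60 and 14.69. Both had their main rise where the opsins did, by 6.14 (adjusted p 6.19e-10) and 8.29 (adjusted p 7.21e-09). By contrast arr3a, a cone arrestin that shuts off the activated opsin, had risen by 5.46 from 1 dpf, where 1 of 3 arrays was well above background, to 2 dpf (adjusted p 6.8e-09), before rising by 4.79 to 3 dpf (adjusted p 6.79e-08). Among 8 genes of outer segment structure 6 rose from 2 to 3 dpf, with a median change of 5.35 (5.32 with bounds). There prph2a, well above background on 1 of 3 arrays of 2 dpf, rose by 7.04 (adjusted p 3.27e-11) and rom1b, a relative of the peripherins, by 5.63 (adjusted p 8.75e-07). The retinoschisin gene rs1a, for an adhesion protein secreted by photoreceptors, rose by 3.72 from 1 to 2 dpf and by 6.23 from 2 to 3 dpf (adjusted p 0.000152 and 6e-07).

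The opsin of rods could not be followed, and 9 rod phototransduction genes were counted in its place. Whether their signals came from rods alone was not tested. From 2 to 3 dpf 6 of these 9 genes rose, with a median change of 3.21 (1.96 with bounds), and 6 rose from 3 to 4 dpf. Of all probes 8.97% and 4.69% were called higher in these steps. The rod transducin alpha subunit gnat1 had mean signals of 3.88, 4.44, 8.65 and 11.41, with rises of 4.00 from 2 to 3 dpf (adjusted p 5.61e-06) and 2.76 from 3 to 4 dpf (adjusted p 0.000199). The rod transducin gamma subunit gngt1 stood at 3.48, 7.15, 10.49 and 13.19 and rose in each step, by 3.67, 3.21 and 2.69 (adjusted p 0.00261, 0.00881 and 0.0206). The arrestin gene saga rose from 2 to 3 dpf by 3.39 (adjusted p 4e-05). It was also called higher from 1 to 2 dpf (adjusted p 0.00303), without a size, since it was at background on all 3 arrays of 1 dpf and the bound was under 1.

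Of 19 measured transcription factors of photoreceptors, 10 rose and 2 fell from 1 to 2 dpf, where 25.1% of all probes were called. From 2 to 3 dpf 2 rose and 1 fell, beside 16.3% of all probes, and their median change was -0.07. The homeobox gene crx, needed for photoreceptor genes to be switched on, had mean signals of 6.69, 11.10, 12.80 and 12.49, and rose by 4.41 from 1 to 2 dpf (adjusted p 1.02e-07) and by 1.57 from 2 to 3 dpf (adjusted p 0.00843). The gene foxq2, a regulator of blue cone opsin in zebrafish, was at background on all DMSO arrays of 1 dpf (mean 0.87) and then at 5.61, 7.56 and 7.50. Its rise to 2 dpf, at least 6.28-fold, had an adjusted p of 0.000135. The gene six7, a regulator of green and blue cone opsins in zebrafish, was at 6.76, 9.41, 10.90 and 11.09 and rose by 2.65 to 2 dpf (adjusted p 0.0222).

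**Figure D2:**
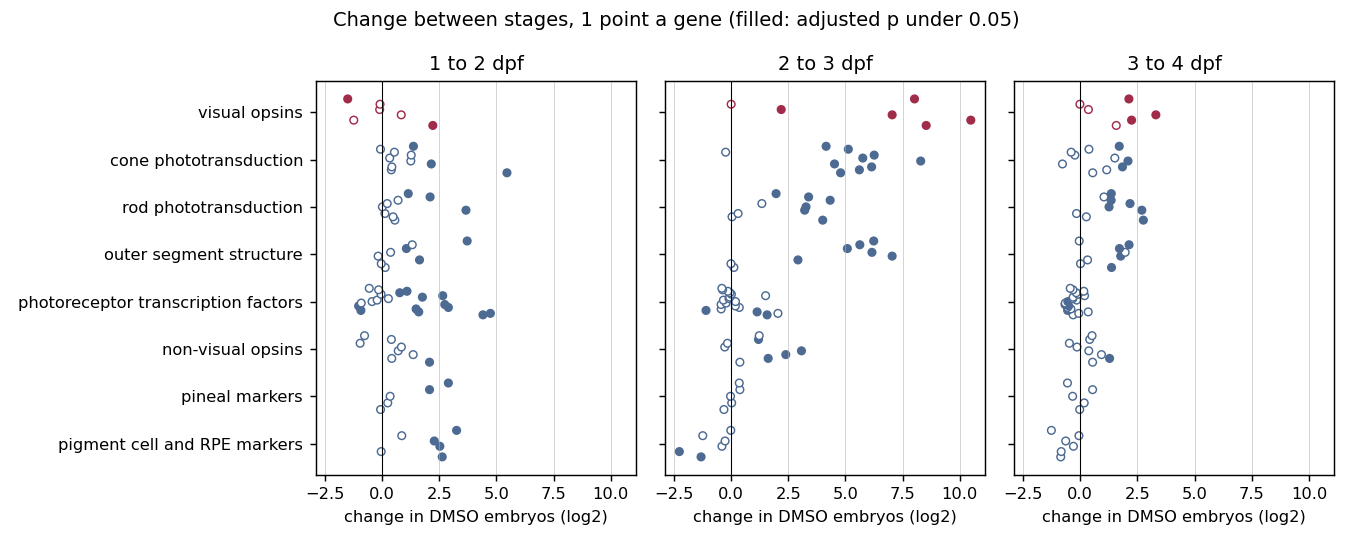
Change of the log2 signal between neighbouring stages in DMSO embryos (horizontal axis), 1 point a gene, for the 6 visual opsin genes and 7 other gene lists (vertical axis). Filled points have an adjusted p under 0.05. From 2 to 3 dpf the median is 7.53 for the visual opsins, 5.37 for cone phototransduction, 5.35 for outer segment structure and -0.07 for transcription factors.

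Genes of other light-sensing and supporting cells were called in part. Of 8 non-visual opsin genes, which serve light responses outside image-forming vision, 4 rose from 2 to 3 dpf. In that step 8.97% of all probes were called higher. The melanopsin gene opn4.1 rose by 2.39 (adjusted p 0.00327), opn6a by 3.07 (adjusted p 2.5e-06) and opn3, the encephalopsin, by 1.62 (adjusted p 0.0105). Of 12 visual cycle genes 3 rose in that step, among them rpe65a, the isomerase that regenerates the chromophore in the pigment epithelium, by 2.43 (adjusted p 1.79e-05). The retinaldehyde-binding gene rlbp1b rose by 2.96 from 1 to 2 dpf (adjusted p 4.49e-05) and by 2.09 from 3 to 4 dpf (adjusted p 0.00131). Of 8 genes for guanylate cyclases and their regulators, which restore the second messenger of the cascade, 3 rose from 2 to 3 dpf, guca1c by 4.46 (adjusted p 0.00532) and guca1g by 3.34 (adjusted p 0.000167) among them. Both guca1c and guca1g were well above background on only 1 of 3 DMSO arrays of 2 dpf.

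Markers of other cells that a whole embryo holds were counted in the same way. Of 5 pineal genes, 2 rose from 1 to 2 dpf, beside 25.1% of all probes called, and 0 in the later steps (limma, adjusted p under 0.05), beside 16.3% and 10.8%. These were exorh, the opsin of pineal photoreceptors, by 2.07 (adjusted p 0.000129) and otx5, a homeobox gene of the same cells that is also in the list of transcription factors, by 2.90 (adjusted p 1.27e-05). The signal of exorh, at 4.36, 6.44, 6.88 and 7.43, therefore rose in the step in which opn1lw2 was first detected on every array, and its part in that result was not tested. Of 13 markers of other retinal cells 7 rose and 2 fell from 1 to 2 dpf, and 4 rose and 2 fell from 2 to 3 dpf. In these steps vsx1 of bipolar cells rose by 3.13 and 0.89 (adjusted p 7.13e-08 and 0.029) and pou4f2 of ganglion cells by 2.76 and 1.1 (adjusted p 2.8e-07 and 0.00658). Of 6 pigment cell genes 4 rose from 1 to 2 dpf, tyrp1b by 3.26 (adjusted p 2.2e-05) and pmela by 2.53 (adjusted p 4.76e-06) among them, while mitfa, their master regulator, fell by 2.27 from 2 to 3 dpf (adjusted p 7.57e-05).

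The effect of E2 on the opsins was read by 2 criteria. One was that of the study, a fold change of 1.4 or more together with p, before adjustment, no higher than 0.01, and the other was an adjusted p under 0.05. At the study thresholds 1 of the 6 opsin genes was called lower at 1 dpf (0.406% of all probes called, 0.206% lower), 0 at 2 dpf (0.229%), 1 lower at 3 dpf (0.766%, and 0.468% lower) and 0 at 4 dpf (0.493%). With adjustment limma called 0 of 6 at each stage, where it called 0%, 0.00688%, 0.0321% and 0.0871% of all probes. Before adjustment p was under 0.05 for 2 opsin genes at 1 dpf, opn1lw2 and opn1mw1 (1.81% of all probes), 0 at 2 dpf (1.32%), 1 at 3 dpf, opn1mw3 (6.3%), and 1 at 4 dpf, opn1mw4 (2.79%). An analysis of variance of each stage alone, without limma's shared variance and after removal of replicate effects from all arrays, also called 0 opsin genes after adjustment. The groups of the 2 treatments overlapped for all 6 genes at 1, 3 and 4 dpf, where 2.58%, 1.73% and 2.02% of all probes did not. At 2 dpf they did not overlap for opn1mw3 (4.39% of all probes), with all 6 arrays at background.

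The gene called at 1 dpf was opn1lw2. Its DMSO signals of 0.68, 5.41 and 3.15 stood against 0.69, 0.57 and 0.93 with E2, so that the probe was well above background on 2 arrays with DMSO and on 0 with E2. DMSO replicate 1 lay within the range of the E2 arrays. The fitted change was -2.35 (SE 0.62, 95% interval -3.65 to -1.05, p 0.00126 and adjusted p 1 in limma), and E2 was lower in 2 of 3 pairs. Since the E2 arrays were all at background and the bound on the fold was under 1, no fold change is given. Without DMSO replicate 2 the change was -1.28 (p 0.0164 in limma). With the arrays of 1 dpf fitted alone its SE was 1.05 and its interval -5.41 to 0.71 (p 0.0968 in limma). The SD of the arrays of 1 dpf was 2.37 in DMSO and 0.19 with E2, and both fits assume an equal spread. The difference was -2.36 in scan batch 1, which held E2 replicate 1 and DMSO replicates 1 and 2 of this stage. It was -2.22 in batch 2, with replicate 3 of both treatments. On the 2 slides that held 1 array of each treatment it was 0.01 for replicate 1 and -2.22 for replicate 3. In the pair of replicate 2, whose arrays differed in both slide and scan batch, it was -4.85.

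On DMSO replicate 2 of 1 dpf, the highest array for opn1lw2, genes of some other photoreceptor lists were also high. It was the highest of the 3 DMSO arrays of 1 dpf for 4 of 6 opsin genes, 6 of 10 cone and 5 of 9 rod phototransduction genes, and for 29.4% of all probes. The 4 opsin genes were opn1lw2, opn1mw1, opn1sw2 and opn1mw4, the last at background on all these arrays. For opn1mw2 and opn1mw3, also at background on all of them, this array was the lowest. The count was 11 of 19 for transcription factors and 5 of 12 for the visual cycle. It was 3 of 8 for outer segment structure, 2 of 8 for guanylate cyclases and regulators, 3 of 8 for non-visual opsins and 1 of 5 for pineal genes. The green opsin gene opn1mw1, at 3.08, 5.26 and 2.69 in DMSO and 1.12, 2.95 and 3.15 with E2, also had its highest signal on DMSO replicate 2. Its change was -1.27 (SE 0.59, adjusted p 1 in limma), with 1 array of each group well above background, and without that array it was -0.58. The part of this array's state in the differences of 1 dpf was not tested. The blue opsin gene opn1sw2, which was well above background on all 6 arrays of 1 dpf, was at 5.04, 5.28 and 5.15 with E2, within the range of the DMSO arrays. Its change was -0.07 with an interval of -0.84 to 0.71.

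At 2 dpf opn1lw2 was at 5.06, 5.79 and 4.82 with E2 against 5.16, 5.96 and 4.78 in DMSO, and opn1sw2 was at 4.27, 3.41 and 3.53 against 4.24, 3.91 and 3.01. In both genes the ranges of the treatments overlapped almost wholly. The changes were -0.08 (95% interval -1.38 to 1.22) and 0.02 (-0.76 to 0.79) in the fit over all stages. With the stage fitted alone the intervals were -0.39 to 0.23 and -0.69 to 0.72. For opn1mw1, well above background on 1 of 3 arrays in each treatment, the fit over all stages gave -0.67 (-1.90 to 0.55). For opn1mw2, at background on all arrays of the stage, it gave -0.57 (-1.45 to 0.30). Both were lower in 2 of 3 pairs.

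At 3 dpf the signals with E2 were 12.31, 13.67, 14.23 and 14.12 for opn1lw2, 11.07, 13.01, 13.33 and 13.16 for opn1mw1, 7.76, 9.23, 9.23 and 9.19 for opn1mw2 and 10.30, 11.90, 11.83 and 11.65 for opn1sw2. Replicate 1 was the lowest of the 8 arrays of the stage in each of these 4 genes, and the other E2 arrays lay among the DMSO arrays. The changes were -0.38, -0.39, -0.20 and -0.36, with adjusted p between 0.731 and 0.891. The first was lower in 4 of 4 pairs and the other 3 in 3 of 4 pairs. Without E2 replicate 1 they were -0.19, -0.03, 0.17 and 0.06. In the fit over all stages the 95% intervals were -1.51 to 0.74 for opn1lw2, -1.45 to 0.67 for opn1mw1, -0.96 to 0.56 for opn1mw2 and -1.03 to 0.31 for opn1sw2. With the stage fitted alone the interval of opn1lw2 was -0.82 to 0.06.

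The gene called at 3 dpf was opn1mw3, at 0.51, 1.47, 2.66 and 2.22 with E2 against 2.50, 3.08, 2.53 and 3.02 in DMSO. Only 1 of 4 arrays was well above background in each treatment, and 3 E2 arrays lay under all DMSO arrays while replicate 3 lay among them. The change was -1.07 (SE 0.29, 95% interval -1.67 to -0.46, p 0.0015 and adjusted p 0.654 in limma), lower in 3 of 4 pairs. Its second probe differed by 0.04 (SE 0.50). Without E2 replicate 1 the change was -0.74 (p 0.00869 in limma), and it was -1.52 in scan batch 1 (2 E2 arrays and 1 DMSO array) and -0.33 in batch 2 (2 of each). It was -1.99 on the slide that held 1 of each, replicate 1 of both treatments, and -0.33 on the one that held 2 of each. With arrays scaled to their 75th percentile in place of quantiles it was -0.24 (p 0.549 in limma).

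On most arrays of 3 dpf the opsins deviated in the same direction. For the 4 opsin genes well above background on all 8 arrays, the deviations from the mean of the stage lay between -1.77 and -1.19 on E2 replicate 1, and between -0.66 and -0.20 on DMSO replicate 1. They lay between 0.28 and 0.71 on DMSO replicate 3 and between 0.30 and 0.81 on DMSO replicate 4. On E2 replicates 3 and 4 they lay between 0.23 and 0.50 and between 0.05 and 0.34. Signs were mixed on DMSO replicate 2 (-0.29 to 0.01) and on E2 replicate 2 (-0.10 to 0.30). Most cone phototransduction genes moved likewise, with median deviations of -1.64 on E2 replicate 1, -0.50 on DMSO replicate 1, 0.68 on DMSO replicate 3 and 0.73 on DMSO replicate 4. On E2 replicate 1 they ran from -3.05 to 1.41, with 9 of 10 under 0 and grk7b above it. The gene gnb3a was at -0.23 on E2 replicate 1 and at -1.50 on DMSO replicate 1. Replicate 1 of both treatments was on the same slide, and replicates 3 and 4 of both were together on another. E2 replicate 1 was the lowest of the 8 arrays for 5 of 6 opsin, 8 of 10 cone and 8 of 9 rod phototransduction genes. It was lowest for 2 of 19 transcription factors, 0 of 6 pigment cell genes and 34.5% of all probes. The count was 9 of 12 for the visual cycle, 6 of 8 for outer segment structure and 3 of 5 for pineal genes. It was 3 of 8 for guanylate cyclases and regulators, 3 of 8 for non-visual opsins and 5 of 13 for markers of other retinal cells. The part of the slide and of this array's background in these deviations was not tested.

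**Figure D3:**
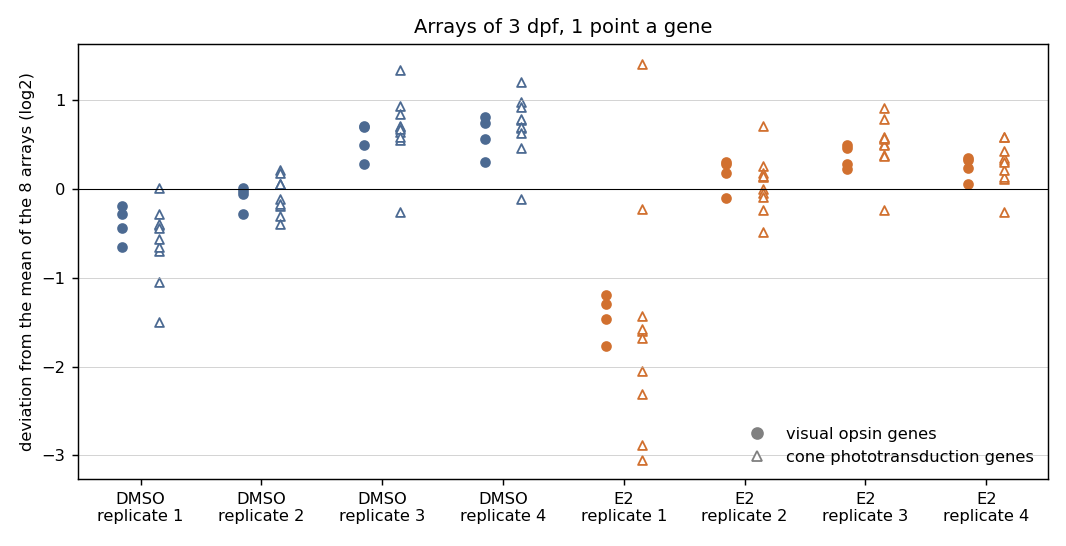
Deviation of the log2 signal from the mean of the 8 arrays of 3 dpf (vertical axis) on each array (horizontal axis), 1 point a gene, for the 4 opsin genes (filled circles) and 10 cone phototransduction genes (open triangles) well above background on all 8. On E2 replicate 1 the opsin genes lie between -1.77 and -1.19.

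At 4 dpf the signals of opn1lw2, opn1mw1, opn1mw2 and opn1sw2 were strongest. The SD of a group was between 0.09 and 0.37 for opn1lw2, opn1mw1 and opn1sw2. For opn1mw2 it was 0.39 in DMSO and 0.40 with E2, against 0.24 and 0.73 at 3 dpf. With E2, opn1lw2 was at 14.92, 15.30, 15.64 and 15.74, opn1mw1 at 15.16, 14.94, 15.21 and 15.29, opn1mw2 at 13.09, 12.10, 12.53 and 12.57 and opn1sw2 at 14.06, 13.53, 13.78 and 13.75. All these ranges overlapped those of DMSO. The changes were -0.14, -0.13, 0.21 and -0.12, each with an adjusted p of 1. The first 2 were lower in 4 of 4 pairs. With the stage fitted alone, which uses the spread of these 8 arrays, the 95% intervals were -0.41 to 0.13 for opn1lw2, -0.36 to 0.11 for opn1mw1, -0.31 to 0.73 for opn1mw2 and -0.42 to 0.17 for opn1sw2. The fit over all stages gave wider intervals, -1.27 to 0.99, -1.19 to 0.93, -0.54 to 0.97 and -0.80 to 0.55. For opn1mw3, at 2.67, 3.84, 3.07 and 3.23 with E2, the change was 0.07, and for opn1mw4, at background on all 8 arrays (p 0.0379 and adjusted p 1 in limma), no fold change is given.

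**Figure D4:**
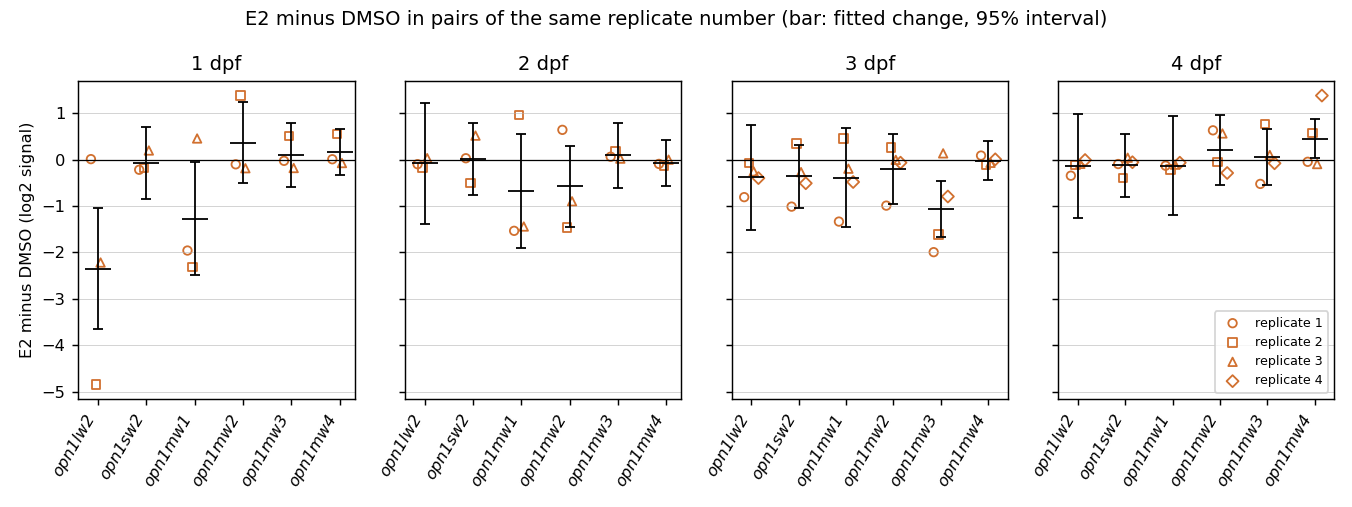
E2 minus DMSO in log2 signal (vertical axis) for the main probe of each opsin gene (horizontal axis) at each stage. Open symbols are pairs of the same replicate number, and black bars are the fitted change with its 95% interval from all 28 arrays. The interval lies wholly under 0 for opn1lw2 (-3.65 to -1.05) and opn1mw1 (-2.50 to -0.05) at 1 dpf and opn1mw3 (-1.67 to -0.46) at 3 dpf, each with probes at background on some arrays. It lies wholly above 0 for opn1mw4 at 4 dpf (0.03 to 0.88), at background on all 8 arrays.

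The model's 3 terms for stage by E2 tested jointly whether the E2 change differed between stages. After adjustment 0 of 6 opsin genes passed, beside 0.0734% of all probes. Unadjusted p-values were 0.0485 for opn1lw2 and 0.0272 for opn1mw3 in limma (1.37% of all probes had one under 0.05), and the other 4 lay between 0.308 and 0.876.

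Of 96 different genes in the other lists, 0 passed either criterion at any stage (limma), and 4, 0, 3 and 2 had an unadjusted p under 0.05 at 1, 2, 3 and 4 dpf. Of all probes 1.81%, 1.32%, 6.3% and 2.79% did so at these stages. At 1 dpf these held grk7a, a kinase that phosphorylates cone opsins, with -1.29 (p 0.0238 in limma). At 3 dpf they held its relative grk7b with 0.53 (p 0.043 in limma). The deviation of grk7b from the mean of that stage was 1.41 on E2 replicate 1, the array whose background marks carry little weight. On the other E2 arrays it was 0.14, -0.23 and -0.26, and on the DMSO arrays -0.28, -0.39, -0.27 and -0.12. At 4 dpf the changes of the 10 cone phototransduction genes lay between -0.20 and 0.15.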

How the data were processed

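Total RNA of 28 pools of whole embryos was labelled with Cy3 and hybridized with Agilent zebrafish arrays. The authors deposited the scanner software's processed signal of each spot, an intensity on a linear scale after subtraction of background and not normalized between arrays. The headers name Feature Extraction 10.7.3.1. The genome build behind the array's design is not given in the sources used here. Precision is limited by how many arrays a group had.

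Control spots (1417 per array) and outlier spots were left out, log2 intensities were quantile normalized and spots averaged to 43603 probes. A linear model with 8 groups and the replicate number as a block was fitted to all arrays in limma 3.58.1 (R 4.3.3), and p-values were adjusted by the Benjamini-Hochberg method over all probes of a contrast. Since replicate 4 exists only at 3 and 4 dpf, fitted stage changes differ slightly from differences of means. Of 19212 probes with a RefSeq transcript accession, 15163 were named (10536 genes). Each gene is represented by 1 main probe, the one of highest mean signal, with the other probe where it differs. In the other lists the genes named are those that pass an E2 criterion, plus the 3 with the largest DMSO difference from 1 to 4 dpf. The bound on a fold sets each array of a group wholly at background to the higher of its own signal and the lowest signal well above background on that array.

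Per the methods, clutches were divided into wells before exposure and batch effects of the biological replicates were removed. Which pools shared a clutch is not given in the sources used here. Same-numbered arrays were paired since they deviated together (r over 0.1 in 14 of 14 pairs, median 0.318 across probes). For other numbers the median was -0.202, and r was over 0.1 in 6 of 36. Within a stage, same-numbered arrays also shared a slide and scan batch, except those of replicate 2, where r was 0.231 to 0.334. Replicates 3 and 4 shared a slide, with r of 0.284 to 0.45 across the numbers and 0.247 to 0.331 within them. The part of the slide in the pairing, and pairing across stages, were not tested. The fit was tested on simulated data. The members and the gene lists were chosen with earlier results of these data known. Figures were drawn by matplotlib 3.10.9 (numpy 2.4.6, pandas 2.3.3, Python 3.11.15). Alternatives covered scaling, background correction, blocks, filters, outlier spots, samples in the fit, the test, weights, probes and left-out arrays. The files hold no mean signal, so normexp correction (offset 50) used the median signal, which was chosen after seeing the data, as was leaving out both arrays with a displaced background.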

Additional observations from a re-analysis of the deposited data

Results flagged for a closer look

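In 6 of 40 groups of 4 arrays, 1 array lay apart from the other 3 by Dixon's test. A single group would pass this threshold by chance about 1 time in 20. The groups are different probes on the same arrays, so they are not independent and their count is not set against that rate. Of the 6, 3 were E2 replicate 1 of 3 dpf for a main probe: opn1mw1 at 11.07 (nearest array 13.01), opn1mw2 at 7.76 (nearest 9.19) and opn1sw2 at 10.30 (nearest 11.65). The same array held the second probe of opn1mw2 at 1.01, where the nearest was at 7.06. The other 2 were of the second probe of opn1mw4 at background, with 0.50 on E2 replicate 2 of 3 dpf and 1.94 on DMSO replicate 3 of 4 dpf.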

How the results depend on the processing

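The results were recomputed under 12 other settings and with each of the 28 arrays left out, and none changed sign while called. The 5 genes called from 2 to 3 dpf in DMSO embryos remained 5 under every setting. The count at the study thresholds, 1 at 1 dpf, became 0 with normexp correction, with each stage alone and with an analysis of variance modelled on the methods (replicate effects removed from all arrays, then each stage alone with its own variance). At 3 dpf 1 became 0 with those 3 and with scaling to the 75th percentile and array weights. The study itself lists opn1lw2 as lower with E2 at 1 dpf and opn1mw3 as lower at 3 dpf. The analysis of variance used here called neither gene, so its counts of 0 do not stand for the study's own test. Why it differs from that test was not tested. The count from 1 to 2 dpf in DMSO embryos, 2, became 0 with normexp, 1 with the stages alone, 0 with the analysis of variance and 4 with array weights. With scaling to the 75th percentile opn1mw2 was called in that step as well (adjusted p 0.04995 in limma). With 1 array left out, the count at 1 dpf ran from 0 (without DMSO replicate 2 or E2 replicate 2 of 1 dpf) to 2 (without DMSO replicate 3), the one at 4 dpf from 0 to 1 (without E2 replicate 1), the adjusted one at 3 dpf from 0 to 1 (without E2 replicate 3), and the one from 1 to 2 dpf from 1 (without DMSO replicate 1 of 1 or of 2 dpf) to 3 (without DMSO replicate 3 of 1 dpf). The gene called at 4 dpf without E2 replicate 1 was opn1mw4, at background on every array of that stage. Its change of 0.45 in the main fit became 0.14 without E2 replicate 4 of 4 dpf. It became 0.15 without both arrays with a displaced background. The count from 3 to 4 dpf in DMSO embryos ran from 3 to 4. In that step opn1lw2 was also called with normexp, with the stages alone and with the analysis of variance. The cause of these shifts was not tested. Without the replicate block the counts of the 2 study-threshold calls stayed at 1 each (p 0.00335 for opn1lw2 at 1 dpf and 0.00217 for opn1mw3 at 3 dpf in limma), and no other call changed. Scaling to the 75th percentile moved the median E2 change of all probes at 3 dpf to 0.24 and the share of study-threshold calls that were higher from 38.9% to 89.3%. At 1, 2 and 4 dpf that share went from 49.2%, 38% and 58.1% to 39%, 41.3% and 70.1%, and with normexp it was 12.5%, 20%, 15.5% and 62.9% at 1, 2, 3 and 4 dpf. Over all probes 177, 100, 334 and 215 passed the study thresholds, against 59, 63, 421 and 97 with that scaling and 8, 30, 97 and 89 with normexp. The study reports more altered probes at each stage than any of these fits. Signals near background limit opn1mw3, opn1mw4 and opn1lw2 at 1 dpf most.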
